A study of Arabidopsis thaliana with 15 samples.

Results

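Leaves of Type I ubc22 plants, the mutant plants of Arabidopsis thaliana whose leaves look like those of WT, were compared with WT leaves. The groups are 3 Type I libraries and 3 WT libraries, chosen by their labels from the 15 libraries of the series. The other 9 libraries come from mutant plants with changed leaves. Leaves were wide and round in Type II and pale and slender in Type III. Type IV plants stayed small, and their leaf margins were toothed. All plants were Col-0, were 21 days old and were kept at 22 °C with 16 h of light per day. The mutants descend from 1 parent plant and were sorted into types by the look of their leaves. Anything else that this parent carried may therefore separate some or all of them from WT as well. The labels name no allele and no mutated position in UBC22, and the number of plants in a library is not given. Of 34307 loci in the deposited table, 17595 with a mean of at least 10 normalized counts over the 15 libraries were tested.

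UBC22 encodes a ubiquitin-conjugating enzyme, or E2. E2 enzymes take activated ubiquitin from an E1 enzyme and pass it, with the help of an E3 ligase, to target proteins. The kind of ubiquitin chain that is built decides whether a target is degraded by the proteasome or altered in its activity. In leaves, ubiquitin ligases control hormone pathways directly, since the receptors of jasmonate and gibberellin work with ligases that remove JAZ and DELLA repressor proteins.

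The WT libraries held 8865955, 12071899 and 9048879 reads in genes, and the Type I libraries 11002536, 11539393 and 10010366. Values are normalized counts, that is, reads of a library divided by its size factor, and are not corrected for gene length. The chi-square per degree of freedom between WT replicates 2 and 3 was 3.79, and WT replicate 1 differed from them by 18.6 and 15.7. Type I replicates 1 and 2 differed by 4.46, and Type I replicate 3 differed from them by 8.925 and 11.3. Type I replicate 3 thus stood apart within Type I and, by more, WT replicate 1 within WT. The gene lists in which WT replicate 1 was far from the other WT libraries are given with and without it. The defining markers of seed and embryo were nearly absent, with a summed level of 0.965 to 3.02 normalized counts over 11 genes in the 6 libraries. Of the 10 root markers, 8 did not reach the minimum for a test, and EXPA7 and TIP2;3 were at 0 in all 6 libraries. The summed root level was 629.1 to 823.8 normalized counts in WT and 841.9 to 900.8 in Type I, so it was higher in every Type I library. It came mostly from PYK10, which overlapped between the groups, and SCR, which did not (339.7 ± 14.2 in WT and 406.8 ± 40.6 in Type I, SD, n = 3, adjusted p = 0.268). The part of root markers in other results was not tested. The flower markers differed between the groups and are described with the flowering genes.

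By limma, 13 of the 17595 loci passed at a Benjamini-Hochberg adjusted p under 0.05 (0.0739%), 8 higher in Type I (0.0455%) and 5 lower (0.0284%). At an unadjusted p under 0.05 there were 2549 loci (14.5%), of which 1423 were higher (8.09%) and 1126 lower (6.4%). The 6 libraries did not overlap at 3344 loci (19%), with 1874 higher in every Type I library (10.7%) and 1470 lower (8.35%). With 1 library left out, the share of all loci that were higher at an unadjusted p under 0.05 ran from 4.14% (without Type I replicate 3) to 9.33% (without Type I replicate 2). The share that were lower ran from 3.26% (without Type I replicate 3) to 7.68% (without WT replicate 1). Counts of list members with 1 library left out are to be read against these shares. In whole leaves, fewer cells of a type and less RNA per cell cannot be told apart.

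UBC22 itself (AT5G05080), the gene named in the mutant's label, had fewer reads in Type I but kept some. Counts are given per locus, so reads of an intact and of a disrupted transcript cannot be told apart. The level of UBC22 was 663, 695.6 and 695.5 normalized counts in WT and 226.5, 251.7 and 304.7 in Type I. The groups lay far apart, and the Type I mean was 38.1% of the WT mean. The log2 fold change was -1.40 ± 0.15 (SE, adjusted p = 0.000436), and an exact permutation test of 3 against 3 libraries gave a 2-sided p of 0.1, the smallest that 20 splits allow. Types II, III and IV did not pass in a test against Type I for this gene, with differences of 0.06 to 0.25 on the log2 scale. The gene lies on the minus strand of chromosome 5 in TAIR10.1, from 1498438 to 1500784. It shares 107 bases with AT5G05070 on the opposite strand, which had no read in any of the 6 libraries.

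None of the other 32 tested E2 genes passed. Their log2 fold changes ran from -0.20 to 0.54, and the smallest adjusted p was 0.177. The upper end was UBC8, an E2 of the group that serves many ligases, at 1417, 1228 and 1350 normalized counts in WT and 1891, 1432 and 2650 in Type I. Its groups did not overlap, though Type I replicate 2 was close to the highest WT library. Subunits and activators of the anaphase-promoting complex, the ligase that drives mitosis forward by degrading cyclins, had a median of -0.13 over 16 tested members. 5 of the 16 were lower in every Type I library and none higher. At an unadjusted p under 0.05 there were 2 lower members, and 0 once WT replicate 3 was left out. The smallest p among them belonged to CDC20.2, an activator of the complex, at 147.3, 148.2 and 166.1 in WT and 118.8, 115.7 and 116.3 in Type I (log2 fold change -0.39, adjusted p = 0.268).

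5 loci differed from WT by more than 4 units on the log2 scale in Type I. All of them lay far from WT on the same side in the 3 types with changed leaves. The first is a transcribed locus without a gene code or position in the sources used here (XLOC_008266, CUFF.2165.1). It had 0 reads in each WT library and 36.2, 47.3 and 36.0 normalized counts in Type I, from 116 reads. Against a floor of 3 reads over the WT group this is at least 36.4-fold higher. The other 9 mutant libraries held 33.1 to 56.3 normalized counts of it, so reads of it were found in each of the 12 mutant libraries and in no WT library.

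AT5G35935, which the deposited annotation calls a transposable element gene and the reference a pseudogene, was the other locus of this kind. It had 14.0, 9.09 and 4.81 normalized counts in WT and 162.1, 208.3 and 198.8 in Type I. The increase was 4.31 ± 0.25 on the log2 scale (adjusted p = 2.03e-07). It spans 6504 bases of chromosome 5, from 14083388 to 14089891 on the minus strand. No other stretch of the nuclear genome matched it over 200 bases at 90% identity, so its reads are not those of a near-identical copy by that measure.

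ASP2 (AT5G19550), the cytosolic form of aspartate aminotransferase, which moves amino groups between aspartate and glutamate, fell in Type I. Its level was 799.8, 594.6 and 618.5 normalized counts in WT and 7.05, 2.89 and 2.33 in Type I. The Type I libraries held 12 reads of it in all, against 1852 in WT. The log2 fold change was -7.15 ± 0.37 (adjusted p = 4.92e-08), and Types II to IV had group means of 4.28 to 5.38 normalized counts.

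None of the isoenzymes of ASP2 passed. ASP1, the mitochondrial form, had 664.2, 830.1 and 773.8 normalized counts in WT and 642.2, 745.5 and 587.2 in Type I. ASP5, the plastid form, had 1860, 2083 and 1696 in WT and 1671, 1792 and 1642 in Type I. Groups overlapped for both. ASP3 and ASP4 had log2 fold changes of -0.05 and 0.11. The 10 other tested aspartate and alanine aminotransferases lay between -0.20 and 0.24 (smallest adjusted p 0.367). Among 18 tested genes of aspartate, asparagine and nitrogen assimilation, 1 had an unadjusted p under 0.05 in each direction. The lower one was ASN3, an asparagine synthetase, at 243.2, 277.3 and 267.1 in WT and 211.4, 224.7 and 211.6 in Type I (adjusted p = 0.257).

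MRD1 (AT1G53480), named in the annotation as a gene that responds to the mto1 mutation in methionine synthesis, fell in Type I, with a log2 fold change of -7.43 ± 0.56 (adjusted p = 6.3e-06). It had 263.1, 350.1 and 334.5 normalized counts in WT, 5.03 in Type I replicate 1 and 0 in the other two Type I libraries. Type I and Type II were lowest, while Type III had 14.4 to 23.4 and Type IV 19.6 to 21.5 normalized counts. In the reference, 1446 of the 1666 bases of MRD1 overlap HEI10 (AT1G53490), a RING-type ligase of meiotic crossover formation, on the opposite strand. HEI10 had 25.7, 39.1 and 33.7 normalized counts in WT and 13.1, 20.3 and 6.98 in Type I (log2 fold change -1.32, adjusted p = 0.15). The kit marks no strand, so reads of MRD1 and HEI10 cannot be told apart where the genes overlap. MRD1 also has stretches of up to 558 bases elsewhere in the genome at up to 93.2% identity.

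AT5G24240, annotated as a phosphatidylinositol 3- and 4-kinase with a ubiquitin-like domain, had 509.8, 288.2 and 272 normalized counts in WT. In Type I it had 5.03, 1.93 and 0. Its log2 fold change was -7.04 ± 0.58 (adjusted p = 1.48e-05). It lies on chromosome 5 from 8230916 to 8234150 on the minus strand. Of the 10 nearest tested genes, 4 had an unadjusted p under 0.05, none passed, and their log2 fold changes ran from -1.70 to 0.86. SOS3, a calcium sensor of salt tolerance, had a mean of 21.5 ± 4.35 in WT and 9.08 ± 4.37 in Type I (SD, n = 3). GMI1, a protein of DNA repair, stood in the other direction, with 39.0 ± 2.36 in WT and 72.1 ± 9.34 in Type I (adjusted p = 0.105).

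Around the 12 passed loci with a known position, 120 nearest tested genes were examined, and 0 passed by limma. At an unadjusted p under 0.05 there were 18 of them, which is close to the share among all loci. The neighbours of UBC22 lay between -0.35 and 0.30. The medians of chromosomes 1 to 5 were 0.00, 0.00, 0.00, -0.01 and 0.00 on the log2 scale.

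2 loci of low level changed less far. AT1G30160, a protein with a domain of unknown function (DUF295), had 11.7, 5.46 and 4.81 normalized counts in WT and 24.2, 32.8 and 36.0 in Type I. It rose by 2.02 ± 0.27 (adjusted p = 0.0056). In Type IV it was higher still, at 65.3, 66.0 and 70.4. AT3G30122, a transcribed pseudogene, had 30.4, 51.8 and 55.4 in WT and 16.1, 6.75 and 5.81 in Type I. It fell by 2.23 ± 0.33 (adjusted p = 0.015). Up to 471 bases of it match 2 other genes at up to 96.6% identity, AT1G56350 (a peptide chain release factor) and AT2G24060 (a translation initiation factor), so its reads are uncertain. Those 2 genes had log2 fold changes of 0.09 and -0.13.

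**Figure D1:**
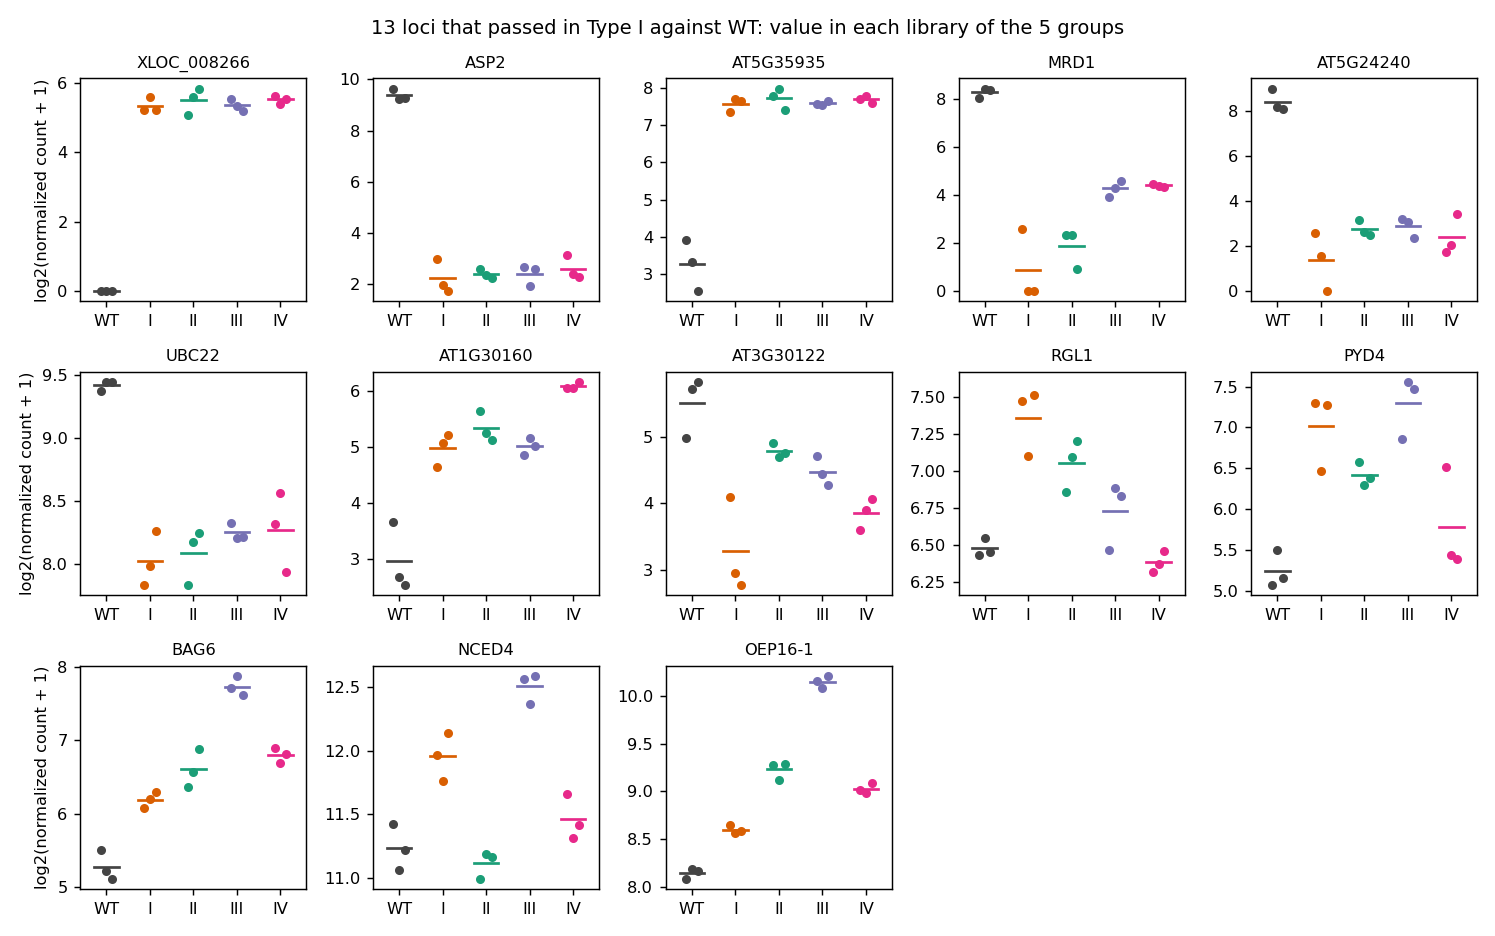
Each panel shows 1 of the 13 loci that passed in Type I against WT, with log2(normalized count + 1) on the vertical axis, a dot per library and a bar at the group mean. For XLOC_008266, ASP2 and AT5G35935 all 12 mutant libraries lie far from WT on the same side, whereas RGL1, PYD4, BAG6, NCED4 and OEP16-1 differ between the types. The vertical axes differ between panels.

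The remaining 5 loci rose by under 2 units on the log2 scale and belong to known leaf pathways. Their upstream sequences are shown, since these genes rose together in Type I. The windows hold up to 250 bases before the annotated gene start in TAIR10.1 from RefSeq, written 5′ to 3′ on the gene's strand. For BAG6 the first 77 bases were left out because they lie in AT2G46230, and OEP16-1 is not shown because its window lies in the neighbouring gene AT2G28910. Capitals mark matches on either strand to ACGTG (the core of the abscisic acid response element) or GAANNTTC (a core of the heat shock element).
RGL1, chr1:24747855-24748104, plus strand: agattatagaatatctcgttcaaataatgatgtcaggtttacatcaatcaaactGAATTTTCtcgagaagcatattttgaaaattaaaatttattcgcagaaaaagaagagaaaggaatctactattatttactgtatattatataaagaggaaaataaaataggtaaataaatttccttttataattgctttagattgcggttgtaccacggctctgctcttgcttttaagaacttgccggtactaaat
PYD4, chr3:2699421-2699670, minus strand: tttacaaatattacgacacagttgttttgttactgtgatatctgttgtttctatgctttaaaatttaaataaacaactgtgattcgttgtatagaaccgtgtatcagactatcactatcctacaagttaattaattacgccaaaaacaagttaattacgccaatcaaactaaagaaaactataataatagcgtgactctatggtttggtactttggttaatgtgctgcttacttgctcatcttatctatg
BAG6, chr2:18985960-18986132, plus strand: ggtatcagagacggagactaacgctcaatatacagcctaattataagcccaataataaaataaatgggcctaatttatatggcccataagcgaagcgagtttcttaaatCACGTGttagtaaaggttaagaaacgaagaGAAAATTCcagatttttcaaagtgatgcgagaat
NCED4, chr4:10481369-10481618, plus strand: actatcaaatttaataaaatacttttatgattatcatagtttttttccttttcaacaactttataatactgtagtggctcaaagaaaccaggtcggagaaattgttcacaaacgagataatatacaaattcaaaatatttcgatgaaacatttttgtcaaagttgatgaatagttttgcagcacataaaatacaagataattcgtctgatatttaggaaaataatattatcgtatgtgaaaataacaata

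BAG6 held both motifs, its ACGTG matches forming the palindrome CACGTG on the 2 strands, and RGL1 held GAANNTTC alone. Of 27443 windows of 250 bases before protein-coding genes, 22.9% hold ACGTG and 9.55% GAANNTTC on either strand. AAAATATCT, the evening element of clock outputs, was found in none of the 4 windows and in 2.36% of all. A match is a string of letters and was not tested as a binding site.

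RGL1 (AT1G66350) encodes a DELLA protein, a repressor of gibberellin responses. It had 85.4, 92.7 and 86.6 normalized counts in WT and 176.1, 136 and 181.4 in Type I, with no overlap. Its log2 fold change was 0.88 ± 0.14 (adjusted p = 0.0384). The other DELLA genes did not pass. RGL3 had 21.1, 31.8 and 21.7 in WT and 41.3, 38.6 and 52.3 in Type I (log2 fold change 0.81, adjusted p = 0.291). RGL2 had a log2 fold change of 0.62, RGA of 0.14 and GAI of 0.20. In the list of 18 tested gibberellin and DELLA genes, 4 were higher and 1 lower at an unadjusted p under 0.05. The lower one was SCL3, a scarecrow-like regulator that acts against DELLA proteins. The higher count was 1 when either WT replicate 3 or Type I replicate 3 was left out.

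PYD4 (AT3G08860), an enzyme of pyrimidine breakdown, had 32.7, 44.6 and 34.9 normalized counts in WT and 157, 87.8 and 153.5 in Type I. It rose by 1.77 ± 0.29 (adjusted p = 0.0384), with Type I replicate 2 nearest to WT. Among 20 tested genes that respond to darkness and sugar starvation, 4 were higher at an unadjusted p under 0.05 and none lower, with 2 higher once Type I replicate 3 was left out. MCCB, a subunit of the carboxylase that breaks down leucine, had 431.5, 549.2 and 549.9 in WT and 664.3, 622.1 and 739.5 in Type I (adjusted p = 0.196).

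BAG6 (AT2G46240), a calmodulin-binding cochaperone, had 44.4, 36.4 and 33.7 normalized counts in WT and 66.4, 72.3 and 77.9 in Type I. It rose by 0.91 ± 0.15 (adjusted p = 0.0384). The 6 other tested BAG genes lay between -0.21 and 0.40. Of 16 tested heat shock and cochaperone genes, 4 were higher at an unadjusted p under 0.05, but BAG6 alone did not overlap between the groups. The count was 2 when either WT replicate 3 or Type I replicate 3 was left out.

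NCED4 (AT4G19170), a dioxygenase that cleaves carotenoids in the plastid, had 2744, 2140 and 2386 normalized counts in WT and 3994, 3479 and 4515 in Type I. It rose by 0.72 ± 0.12 (adjusted p = 0.0411). The 13 other tested genes of carotenoid synthesis and cleavage lay between -0.33 and 0.19. OEP16-1 (AT2G28900), a channel of the outer plastid envelope that passes amino acids, had 270.1, 291 and 285.2 in WT and 400.6, 376.1 and 381.4 in Type I. It rose by 0.45 ± 0.08 (adjusted p = 0.0411), with the narrowest spread of these 5 genes. The 7 other tested envelope channel genes lay between -0.21 and 0.50, with OEP7 at the upper end.

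These 5 genes did not stay at the Type I level in the types with changed leaves. Of all tested loci, 14.3% passed between Type II and Type I, 41.6% between Type III and Type I and 27.8% between Type IV and Type I. RGL1 was lower than in Type I in Type III by 0.63 and in Type IV by 0.97, where it had 78.8, 82.0 and 87.0 normalized counts, close to the WT libraries. BAG6 was higher in Type III by 1.54, and OEP16-1 was higher in all 3 other types, by 1.55 in Type III. NCED4 was lower in Type II by 0.84 and higher in Type III by 0.55. PYD4 passed in Type IV alone, with a difference of -1.23 from Type I.

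The 13 calls were not equally firm. XLOC_008266, ASP2, AT5G35935, MRD1, AT5G24240 and UBC22 passed in each of 6 fits that left out 1 WT or Type I library, with adjusted p up to 0.00545. AT1G30160 passed in 5 of the 6 fits and AT3G30122 in 3. RGL1, PYD4, BAG6 and NCED4 passed in 2 and OEP16-1 in 1, and without Type I replicate 3 their adjusted p lay between 0.216 and 0.325. The sign stayed the same in all 6 fits for each of the 13 loci. Over all loci the share that passed was 0.301%, 0.0682% and 0.0455% without WT replicates 1, 2 and 3, and 0.0455%, 0.523% and 0.0341% without Type I replicates 1, 2 and 3. By edgeR and by limma-voom 9 of the 13 loci passed (0.0512% of all loci by either tool), and by DESeq2 all 13 did (1.18% of all). With a minimum mean of 1 in place of 10, all 13 passed (0.105% of all). With a minimum of 50, 10 passed (0.0704% of all). XLOC_008266, AT1G30160 and AT3G30122 lay below that minimum and were not tested in that fit. With scaling to library totals 9 of the 13 passed (0.0625%), and with WT and Type I fitted alone 6 (0.0568%).

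**Figure D2:**
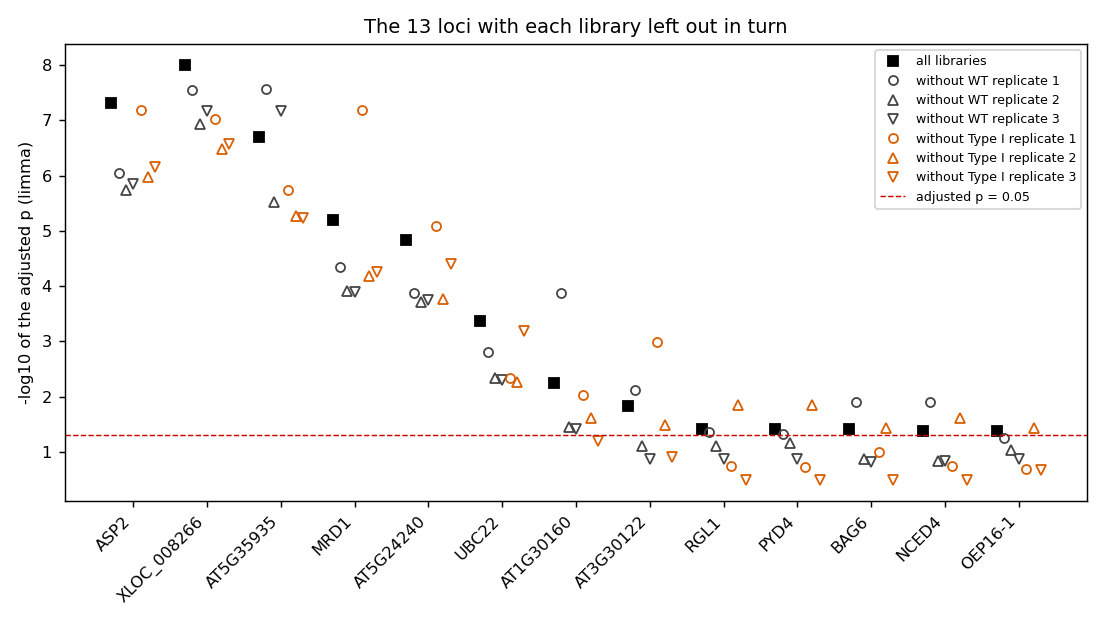
The vertical axis gives -log10 of the limma adjusted p for each of the 13 loci, with all libraries (filled squares) and with 1 library left out (open symbols). The first 6 loci stay above the dashed line of 0.05 throughout, while RGL1, PYD4, BAG6, NCED4 and OEP16-1 lie on both sides of it.

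Genes of aliphatic glucosinolate synthesis, which makes methionine-derived defence compounds of the cabbage family, stood above WT without any of them passing. All 25 tested members had a log2 fold change above 0, with a median of 0.69. At an unadjusted p under 0.05 there were 19 higher and none lower, and 22 were higher in every Type I library than in any WT library. The median difference from the WT mean was 0.33, -0.01 and -0.32 in the WT libraries and 0.63, 0.60 and 0.89 in the Type I libraries. On these unlike baselines, which place WT values further out, each Type I value lay above each WT value. When 1 library was left out, 12 (without WT replicate 3) to 19 members were higher.

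Along the pathway, the regulators MYB28, MYB29 and MYB76 had log2 fold changes of 0.55, 0.62 and 1.41. MAM1, which lengthens the methionine chain, had 2542, 2500 and 2415 normalized counts in WT and 4007, 4146 and 6258 in Type I (log2 fold change 0.92, adjusted p = 0.119). CYP79F1 and CYP79F2, which form the aldoximes, had 1.18 and 1.09. GSTU20, a glutathione transferase of the core pathway, had 4116, 3561 and 3071 in WT and 5227, 5439 and 5812 in Type I (adjusted p = 0.104, the smallest of the list). SOT18, the sulfotransferase of the last core step, had 367.2, 270.9 and 243.1 in WT and 550.6, 466.8 and 650 in Type I. The groups did not overlap for MAM1, GSTU20 or SOT18. DESeq2 called 7 members higher, MAM1, IPMI2, IMD1, CYP83A1, GSTU20, SOT18 and FMOGS-OX1.

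In the indole branch and camalexin, made from tryptophan, 5 of 16 tested members were higher at an unadjusted p under 0.05 and none lower, with a median of 0.38. CYP81F4, which hydroxylates indole glucosinolates, had 141.5, 70.0 and 42.1 normalized counts in WT and 380.5, 514.1 and 226.8 in Type I (log2 fold change 2.23, adjusted p = 0.129). Of the camalexin enzymes, PAD3 and CYP71A13 had log2 fold changes of -0.58 ± 0.91 and -1.52 ± 1.09 (SE), and CYP71A12 had 0.63 ± 1.03. None of them had an unadjusted p under 0.05. WT replicate 1 was far above the other WT libraries over this list, with a median difference of 0.82, and the list median was 0.65 without it, with 7 members higher. The count was 3 when WT replicate 3 or Type I replicate 1 was left out.

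Jasmonate synthesis and response genes had the highest median of the lists with at least 8 tested members, 0.95 over 28 tested members. 15 were higher at an unadjusted p under 0.05 and none lower, 19 were higher in every Type I library, and none passed. The median difference, on the unlike baselines given for aliphatic glucosinolates, was 0.42, 0.25 and -0.85 in the WT libraries. In the Type I libraries it was 0.85, 0.83 and 0.96. WT replicate 3 was low and Type I was even. With WT replicate 3 left out the median was 0.64 with 8 members higher (6.59% of all loci). With WT replicate 1 left out it was 1.11 with 18 higher (8.93% of all loci).

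The synthesis enzymes LOX2, AOS and OPR3 had log2 fold changes of 1.46, 1.05 and 1.15. MYC2, the transcription factor that JAZ repressors hold back, had 405.7, 284.6 and 198.6 normalized counts in WT and 827.4, 965.4 and 862.8 in Type I (log2 fold change 1.63, adjusted p = 0.153). The repressor JAZ12 had 584.6, 545.5 and 505.4 in WT and 807.2, 664.5 and 939.5 in Type I (adjusted p = 0.139), and DESeq2 called it higher. VSP2, a storage protein that responds to jasmonate, had 1040, 511.9 and 143.2 in WT and 3696, 4104 and 5829 in Type I (log2 fold change 3.39 ± 0.82, adjusted p = 0.117). Its WT libraries spread more widely than its Type I libraries, yet the groups stayed apart. COI1, the jasmonate receptor, had a log2 fold change of 0.03.

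Salicylic acid defence genes stood below WT, with all 23 tested members below 0, a median of -0.62 and none passed. 6 were lower at an unadjusted p under 0.05 and none higher, and 6, not all of them the same genes, were lower in every Type I library. WT replicate 1 stood far above the other WT libraries here. The median difference was 1.70 in WT replicate 1 and -0.87 and -0.68 in the other WT libraries. In Type I it was -0.49, -0.86 and -0.66. These WT and Type I values have unlike baselines, so they do not show how close Type I lay to WT replicates 2 and 3. Without WT replicate 1 the median was -0.13, with 2 members lower (7.68% of all loci), and without Type I replicate 2 there were 2 lower as well. It was 7 without WT replicate 2 or 3.

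WRKY38, a repressor within this defence, had 118.1, 26.4 and 7.22 normalized counts in WT and 4.03, 1.93 and 2.33 in Type I (log2 fold change -3.03, adjusted p = 0.144). ALD1, the enzyme that makes the precursor of pipecolic acid, had 240.9, 34.6 and 31.3 in WT and 11.1, 7.72 and 14.0 in Type I (-2.49, adjusted p = 0.171). For both genes WT replicate 1 was highest, and every WT library exceeded every Type I library. Without WT replicate 1 the log2 fold change was -2.04 for WRKY38 (adjusted p = 0.2) and -1.54 for ALD1 (adjusted p = 0.241). DESeq2 called these 2 members lower. ICS1, the main enzyme of salicylic acid synthesis, had a log2 fold change of -0.57 and the marker PR1 of -1.06. Senescence genes showed the same split within WT, with a median difference of 1.29 in WT replicate 1 against -0.56 and -0.42, and a list median of -0.02 in Type I that was 0.40 without that library.

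Flavonoid and anthocyanin genes, which make leaf pigments and sunscreens, had a median of 0.56 over 16 tested members. 6 were higher at an unadjusted p under 0.05 and none lower. UF3GT, a glycosyltransferase of anthocyanins, had 65.5, 58.2 and 49.3 normalized counts in WT and 123.8, 121.5 and 127.9 in Type I (adjusted p = 0.251). The regulators PAP1 and TT8 had 1.25 and 0.92, and the flavonol enzyme FLS1 had -0.08. The count of higher members was 8 when WT replicate 1 was left out (8.93% of all loci) and 2 when WT replicate 3 was (6.59%).

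Genes of abscisic acid, cold and dehydration lay above 0 for all 23 tested members, with a median of 0.42 and 8 higher at an unadjusted p under 0.05. P5CS1, the first enzyme of proline synthesis, had 2833, 2205 and 1874 normalized counts in WT and 6209, 4202 and 6174 in Type I (log2 fold change 1.26, adjusted p = 0.0764). RAB18, a dehydrin, had 106.4, 86.4 and 96.3 in WT and 158, 133.1 and 226.8 in Type I (adjusted p = 0.112). NCED3, which makes the precursor of abscisic acid, had a log2 fold change of 1.04. The Type I libraries were uneven over the list, with median differences of 0.61, 0.06 and 0.73. Type I replicate 2 was within the range of the WT values, whose baseline differs. The median was 0.19 without WT replicate 3 and 0.64 when Type I replicate 2 was left out, and 12 members were higher without WT replicate 1. DESeq2 called P5CS1, RAB18 and RD22 higher.

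Light reaction and Rubisco genes had a median of 0.23 over 27 tested members, 8 of them higher at an unadjusted p under 0.05 and none lower. The count was 5 when WT replicate 1 or Type I replicate 3 was left out. PSAE-1, a subunit of photosystem I, had 15624, 15882 and 17622 normalized counts in WT and 22332, 19074 and 27314 in Type I (log2 fold change 0.47, adjusted p = 0.164). DESeq2 called 4 members higher, LHCB1.4, LHCB4.2, PSAE-1 and PSAF. The clock list of 22 tested genes had a median of 0.20, with 6 higher at an unadjusted p under 0.05 and none lower. This count rested on single libraries, since it was 0 with Type I replicate 3 left out, 1 in the absence of WT replicate 2 or 3, and 3 if Type I replicate 1 was omitted. GRP7, a clock-controlled RNA-binding protein, had 166, 201.8 and 231 in WT and 255.7, 256.6 and 345.4 in Type I (adjusted p = 0.239).

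Of 29 tested cell cycle genes, 22 lay below 0, with a median of -0.17. 3 were lower at an unadjusted p under 0.05 (6.4% of all loci). This count was 0 without WT replicate 3 or Type I replicate 3, and 6 with Type I replicate 2 left out. SMR1, an inhibitor of cyclin-dependent kinases, was the 1 higher member, at 162.5, 187.3 and 237.1 normalized counts in WT and 267.7, 248.8 and 312.8 in Type I. E2FA, a transcription factor of DNA replication, had 58.5, 68.2 and 59.0 in WT and 49.3, 45.3 and 43.0 in Type I (adjusted p = 0.342). Of the 29 genes, only SMR1 was higher in every Type I library (10.7% of all loci) and only E2FA lower (8.35%). The median difference was -0.10, 0.04 and 0.01 in the WT libraries and -0.03, -0.12 and -0.28 in the Type I libraries. On these unlike baselines, Type I replicate 1 lay within the range of the WT values, and replicates 2 and 3 lay below it.

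**Figure D3:**
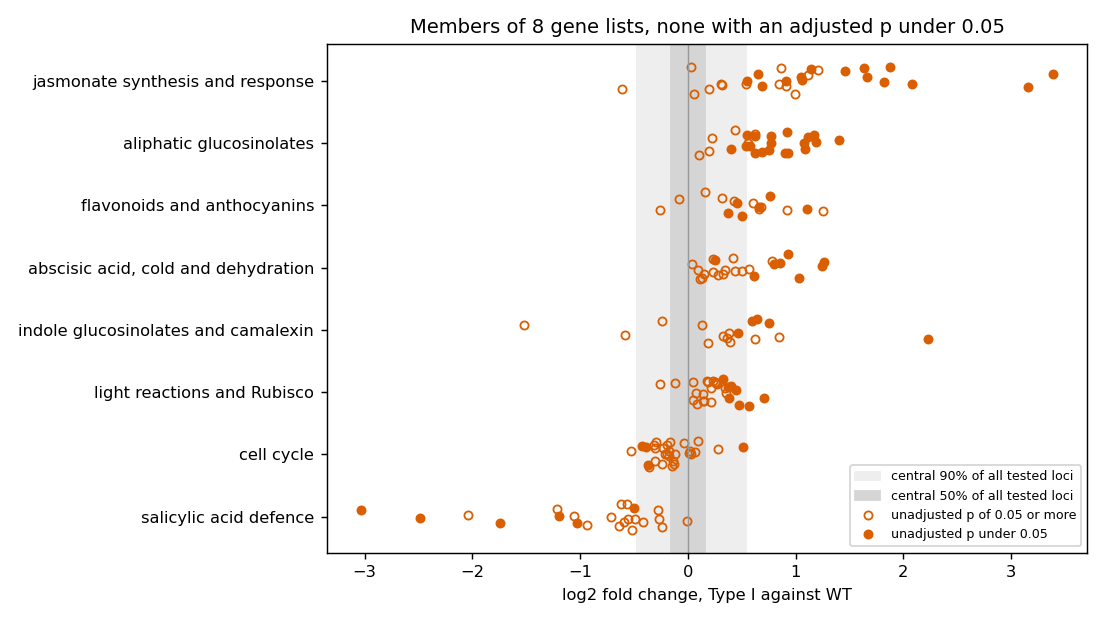
The horizontal axis gives the log2 fold change of Type I against WT for each tested member of 8 lists, as filled dots where the unadjusted p was under 0.05. The darker band holds the central 50% of all 17595 loci (-0.16 to 0.16) and the lighter band the central 90% (-0.47 to 0.54). Most aliphatic glucosinolate members lie above both bands, and no dot has an adjusted p under 0.05.

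Among 18 tested flowering genes, 6 were higher and 1 lower at an unadjusted p under 0.05, with 4 to 6 higher and 1 or 2 lower when 1 library was left out. SPL3, a transcription factor of the shift to the adult phase, had 99.4, 117.3 and 103.5 normalized counts in WT and 159, 156.2 and 191.9 in Type I (log2 fold change 0.66, adjusted p = 0.104). Its groups were well separated, and DESeq2 called it higher. SPL5, of the same family, had 56.1, 40.9 and 45.7 in WT and 68.4, 76.2 and 101.2 in Type I. AP1, which starts floral meristems, had 5.85, 6.37 and 4.81 in WT and 20.13, 20.25 and 12.79 in Type I (log2 fold change 1.47, adjusted p = 0.139). The floral repressor FLC had -0.51, and MAF4, a related repressor, had 40.9, 29.1 and 39.7 in WT and 14.1, 23.2 and 24.4 in Type I (-0.82).

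The flower markers also differed between the groups, at low levels. Over the whole list of 9 flower and pollen markers the summed level was at most 26.9 normalized counts in WT and 125.8, 79.1 and 48.8 in Type I. SEP3, a gene of all floral whorls, had 1.17, 4.55 and 4.81 in WT and 23.2, 13.5 and 8.14 in Type I. AG, a gene of stamens and carpels, had 9.35, 0.909 and 7.22 in WT and 19.1, 12.5 and 15.1 in Type I. AP3, for petals and stamens, had 2.68 ± 1.53 in WT and 14.0 ± 4.52 in Type I (SD, n = 3). SEP1, SEP2 and AP3 did not overlap between the groups either, whereas PI, the partner of AP3, did in Type I replicate 3. The pollen markers VGD1 and PGA4 and the anther marker A9 were at 0 in all WT libraries and at 0 to 3.02 in Type I. The part of floral tissue in the values of other genes was not tested.

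**Figure D4:**
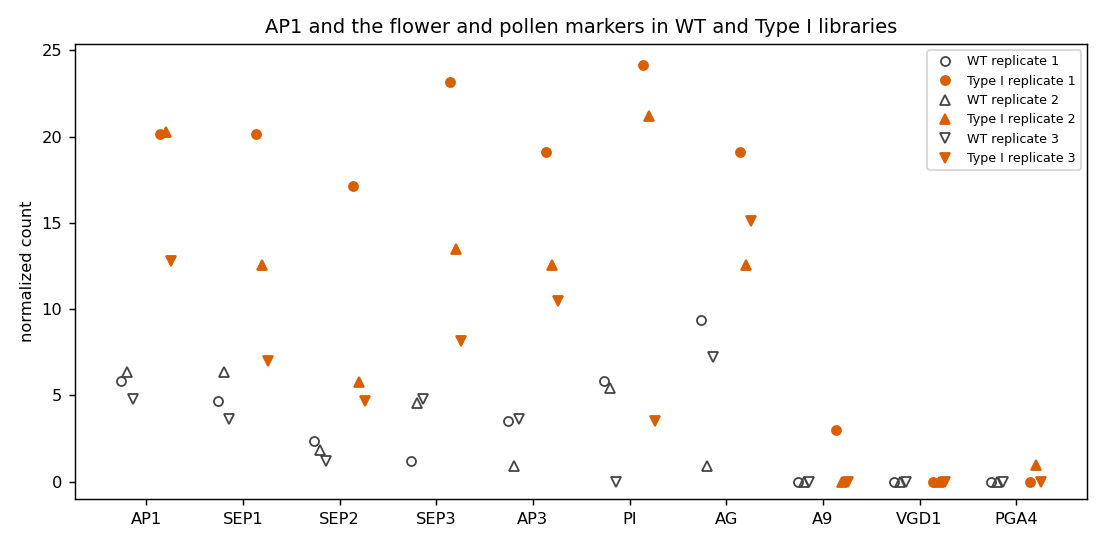
The vertical axis gives the normalized count of AP1 and of the 9 flower and pollen markers in each WT library (open) and each Type I library (filled). Type I replicate 1 is highest for SEP1, SEP2, SEP3, AP3, PI and AG, and the pollen markers VGD1 and PGA4 are at or near 0 throughout.

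Of 28 tested leaf shape genes, 7 were higher and 1 lower at an unadjusted p under 0.05, with a median of 0.11. Without Type I replicate 3 there were 2 higher and 2 lower, and 4 were higher when WT replicate 1 or 2 was left out. KLU, a cytochrome P450 that promotes organ growth, had 53.8, 45.5 and 62.6 normalized counts in WT and 93.6, 105.1 and 89.5 in Type I (adjusted p = 0.119). TCP24, which limits leaf growth, was the lower one, with a log2 fold change of -0.35. Of 24 tested DNA methylation and silencing genes, 5 were higher and 3 lower at that threshold, with a median of 0.05. There were 2 higher without Type I replicate 1, 3 higher without WT replicate 2, WT replicate 3 or Type I replicate 3, and 1 lower without Type I replicate 3. SUVH9, a protein that guides DNA methylation, had 320.4, 291 and 305.6 in WT and 383.5, 398.3 and 389.5 in Type I (0.35, adjusted p = 0.12). CMT3, a DNA methyltransferase, had 305.2, 295.5 and 297.2 in WT and 264.7, 255.6 and 222.1 in Type I (-0.28, adjusted p = 0.245). Groups did not overlap for either gene. In the list of ethylene and jasmonate-ethylene defence, 1 of 14 tested members had an unadjusted p under 0.05. This was ERF5, a transcription factor, with normalized counts of 36.2, 23.64 and 9.63 in WT and 49.3, 28.9 and 65.1 in Type I, where the groups overlapped.

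Next to the threshold stood genes that did not pass. NUDT17, a nudix hydrolase, was closest, with 677, 422.8 and 482.5 normalized counts in WT and 296.9, 305.7 and 270.9 in Type I (log2 fold change -0.83, adjusted p = 0.0518). FDH, formate dehydrogenase, had 833.7, 865.6 and 815.9 in WT and 1297, 1086 and 1522 in Type I (0.62, adjusted p = 0.0623). AT1G34418, annotated as other RNA, had 101.7, 169.1 and 168.5 in WT and 50.3, 82.9 and 54.7 in Type I (-1.21, adjusted p = 0.063). Each of the 3 had groups that did not overlap. Further genes of this kind were GAE2, an epimerase of cell wall sugars, with a log2 fold change of 0.83, the HSP20-like chaperone gene AT1G54050 (adjusted p = 0.0838), and the photosystem factor HCF243 at 0.54. On the lower side were AT1G76520 (PILS3), an auxin carrier of the endoplasmic reticulum, at -0.74, the alcohol dehydrogenase gene AT5G42250 at -1.17, the IQ-domain gene iqd8 at -0.69 and the receptor-like kinase gene PERK15 at -0.54.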

How the data were processed

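The deposited table holds 34307 loci in 15 libraries of total leaf RNA (TruSeq RNA kit v2, per the labels, which marks no strand). The submitters' processing notes name TAIR10, DESeq2 1.12.4, HTSeq 0.6.0, StringTie 1.0.3 and STAR 2.4.0j but no role for any of them. The deposited signal values are read counts scaled by the authors with 1 size factor per library: 100% were whole multiples of 1 step within 1e-06, so whole reads were recovered. 2 columns were mapped through a slip in the column name. Loci without a gene code (260) held 0.136% of reads. For a code with several loci, lists use the locus with the highest mean. Of the loci that passed, AT5G35935, BAG6 and NCED4 have codes with 2 loci each, and values are given for the locus that passed.

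limma 3.58.1 (R 4.3.3, mean-variance trend) was fitted to log2(value + 1) of all 15 libraries, keeping loci whose mean reached 10. Fold changes are on that scale and understate changes of low loci. A locus passed when its p, adjusted by Benjamini-Hochberg over the 17595 loci, was under 0.05. p-values measure the spread between libraries. Because the table is not of raw counts, edgeR 4.0.16, DESeq2 1.42.0 and limma-voom ran on recovered reads as alternatives. Other alternatives were scalings, filters, pseudocounts, fewer groups and left-out libraries, and size factors without organelle loci, which was chosen after seeing the data. The fits were tested on simulated data.

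Members, lists (528 entries in 26 lists, 460 tested) and tests were chosen with earlier results of these data known, and lists carry no test of their own. Named genes are UBC22, all loci that passed, the 10 higher and 10 lower loci of next smallest p (mean of at least 50, no overlap, log2 fold change of at least 0.5 in size), up to 5 members of smallest p per list, isoenzymes and paralogs, and near neighbours. Other list members are given to show steps of a pathway and were chosen after their values were seen. Positions come from TAIR10.1, and copies were sought with BLAST 2.17.0 (at least 90% identity over at least 200 bases).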

Additional observations from a re-analysis of the deposited data

Results flagged for a closer look

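8 of the 13 loci differed between Type I and another mutant type by a direct limma contrast with adjusted p under 0.05, and are listed for that reason. Such calls were common, since the contrast with Type III alone called 41.6% of all tested loci. The contrast with Type IV called 27.8% and that with Type II 14.3%. The share of all loci called in at least 1 contrast was not counted, so 8 of 13 is not shown to be a trait of these loci. All differences are on the log2 scale, the other type minus Type I, and share the Type I libraries. MRD1 was higher by 3.42 in Type III and by 3.56 in Type IV. AT1G30160 was higher in Type IV by 1.11. AT3G30122 was higher in Type II by 1.51 and in Type III by 1.202. RGL1 differed by -0.63 in Type III and by -0.97 in Type IV. PYD4 differed by -1.23 in Type IV. BAG6 was higher in Type III by 1.54 and in Type IV by 0.61. NCED4 was higher in Type III by 0.55, and differed by -0.84 in Type II and by -0.49 in Type IV. OEP16-1 was higher in each type, by 1.55 in Type III, by 0.63 in Type II and by 0.43 in Type IV. The other 5 loci, XLOC_008266, ASP2, AT5G35935, AT5G24240 and UBC22, did not pass in any of these contrasts, which does not show that they are equal.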

How the results depend on the processing

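No paired analysis was possible because the labels give no replicate numbers that groups share. The 13 calls became 11 scaled to library totals, 22 with a minimum mean of 1 (14 higher, 8 lower), 10 with a minimum of 50, 9 by edgeR, 9 by limma-voom and 203 by DESeq2 (146 higher, 57 lower). The number higher was 4 with library totals, edgeR and limma-voom, against 8. Leaving out 1 library gave 6 to 92 calls, 2 to 55 of them higher and 4 to 37 lower: 53 without WT replicate 1, 92 without Type I replicate 2, 8 when either WT replicate 3 or Type I replicate 1 was left out, and 6 without Type I replicate 3. Of the calls made without WT replicate 1 and those made without Type I replicate 2, 20 were shared, 12 of them among the 13. With 1 library left out, 3 to 5 of the 13 loci differed from Type I in Type II (3 with all libraries, and 5 without Type I replicate 1). Scaling to library totals moved the median of all loci to -0.07, and splits of calls from 8 and 5 to 4 and 7. With only the 6 libraries of WT and Type I, 10 loci passed, 6 of them among the 13. 3 named genes that did not pass changed sign when 1 library was left out. NAP ran from -0.025 to 0.95 (reversed without WT replicate 2), SAG20 from -0.16 to 0.25 (reversed without Type I replicate 3) and ASP3 from -0.13 to 0.012 (reversed without WT replicate 2). The cause of these changes was not tested. List medians that kept their sign in every alternative run included aliphatic glucosinolates (0.52 to 0.81), jasmonate (0.64 to 1.11) and salicylic acid defence (-1.10 to -0.13). With 3 libraries a group, low loci such as AT1G30160 rest on 20 reads in WT and 89 in Type I.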

Other observations

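Some short transcripts of plastid or microRNA genes passed only in alternative fits, and are given as values. RPL32, a plastid ribosomal protein gene, had 35.1, 129.1 and 34.9 normalized counts in WT and 18.1, 8.68 and 4.65 in Type I, and DESeq2 called it lower. MIR157c, a precursor of the microRNA family that targets SPL genes, had 38.6, 67.3 and 34.9 in WT and 8.05, 21.2 and 6.98 in Type I. MIR169m, a precursor of microRNAs that target NF-YA genes, had 21.1, 30.0 and 25.3 in WT and 3.02, 16.4 and 1.16 in Type I. The last pair passed without Type I replicate 2, which was nearest to WT in each. The kit is not made for short RNA. Over 37 tested plastid loci the median differences were 0.34, 0.24 and -0.46 in Type I, so these loci did not move one way.

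Genes called higher without WT replicate 1 included SNZ, a repressor of flowering, at 402.2, 204.6 and 190.1 normalized counts in WT and 498.2, 443.7 and 514 in Type I. GolS2, an enzyme of raffinose synthesis in drought and cold, had 73.7, 8.18 and 13.2 in WT and 113.7, 59.8 and 168.6 in Type I. For both, WT replicate 1 was the WT library nearest to Type I.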
